A study of Cricetulus griseus with 24 samples.

Results

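Cytosolic ribosomal protein genes were examined in hamster phagocytes that met apoptotic cells. They were taken by gene name, as every name made of Rpl or Rps and a number with an optional letter or digit, with Rplp0, Rplp1, Rplp2 and Rpsa added and the Rps6 kinases left out. Of 26776 gene names in the count tables, 76 met this rule, and 75 of them reached a mean of 1 CPM (fragment counts scaled to library size with TMM factors) in at least 1 of 6 groups. Rpl3l, the muscle form of Rpl3, did not. The 75 comprised 30 genes of the small subunit, 38 of the large subunit, 3 of the stalk and 4 paralogues, Rpl22l1, Rpl26l1, Rps27l and Rpl7l1. Rpl17, Rpl36, Rpl39, Rpl41 and Rps29 had no row under these symbols and were not analysed here, apart from the row that stands for Rpl17 described below.

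The cytosolic ribosome translates messenger RNA with a small subunit, which reads the codons, and a large subunit, which joins the amino acids. Each ribosome holds 1 copy of most of these proteins, and cells keep their supply balanced, in good part through a pyrimidine motif at the 5′ end of the mRNAs that links translation to mTORC1 and the RNA-binding protein Larp1. The acidic stalk proteins Rplp1 and Rplp2, anchored by Rplp0, recruit elongation factors. Several of the genes, Rplp0 and Rpl13a among them, are widely used as reference genes in expression assays.

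The phagocytes were LR73 cells, a Chinese hamster ovary line that the labels call cultured fibroblasts. The targets were Jurkat cells, a human T lymphoma line, made apoptotic with 1500 mJ of ultraviolet C and a further 4 h of culture. The first experiment had 4 groups of 4 libraries: phagocytes alone (control), with cytochalasin D, with apoptotic cells, and with both. Cytochalasin D caps actin filaments, which phagocytes need to take up a target. The other experiment compared genotypes after 2 h with targets: LR73 cells, wildtype or Slc12a2-deficient, were sorted for the pH-sensitive dye CypHer5E, which marks cells that have engulfed, with 4 libraries each. Slc12a2 encodes the cotransporter NKCC1. How it was removed, and whether the deficient cells were 1 clone, is not given in the sources used here.

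Depth was 8272232 to 18911353 counted fragments a library among the 16 libraries without sorting, and 22758587 to 28450594 among the 8 sorted ones. The deficient libraries held 24.7 ± 1.58 CPM of Slc12a2 against 96.5 ± 5.68 CPM in wildtype libraries. Of 12 fibroblast markers in the tables, 7 or 8 reached 1 CPM in each group. Col1a1, Col1a2, Thy1 and Lum stayed below 1 CPM in every group. T lymphocyte markers summed to between 31.1 and 37.5 CPM in the 8 libraries without apoptotic cells, to between 41.3 and 47 CPM in the 8 unsorted libraries with them, and to between 23.7 and 32.2 CPM in the 8 sorted libraries, whose cells had also met them. Tcf7 and Lat, at 23.7 and 11 CPM in control libraries, made up most of the sum in every group. Lck, Zap70 and Lef1 stood at 0.0263, 0.0131 and 0 CPM in control libraries and at 3.19, 3.33 and 1.67 CPM with apoptotic cells. Of 6 markers tested in that comparison, these 3 were called higher and none lower. How much RNA of the human targets is caught by counts of hamster genes was not tested. In these RNA pools, fewer cells of a type and less RNA per cell cannot be told apart.

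The members were abundant and held a steady share of the counts. Summed, they took 6.91% ± 0.134 of the counts in control libraries, 7.12% ± 0.214 with cytochalasin D, 7.10% ± 0.151 with apoptotic cells and 6.85% ± 0.175 with both (SD, n = 4 each). In the second experiment they took 5.12% ± 0.186 in wildtype and 5.24% ± 0.247 in Slc12a2-deficient libraries. Libraries of all 4 groups of the first experiment overlapped, from 6.79% to 7.05% in control libraries, 6.81% to 7.30% with cytochalasin D, 6.91% to 7.28% with apoptotic cells and 6.62% to 7.03% with both. The 2 experiments were made and scaled separately, so their shares are given side by side and were not compared.

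Compared per transcript length, as TPM, most members stood within a narrow range. The median over members in control libraries was 2454 TPM. Leaving out the 4 paralogues and the row named Rps6, the quartiles of the other 70 members were 1849 and 3153 TPM. Rplp0, the base of the stalk, stood highest at 6212 ± 206 TPM, followed by Rplp2 at 5855 ± 332 TPM, Rps2 at 5749 ± 164 TPM and Rpsa, which doubles as a laminin receptor, at 5321 ± 296 TPM. Libraries of neighbours in this order overlapped, and in the group with apoptotic cells alone Rps2 had the highest mean. Rpl5, which with Rpl11 carries 5S RNA and binds Mdm2, was the lowest of the 70 at 423 ± 34.5 TPM. Its row is the longest of all members at 1830 bases. By CPM it was not the lowest, at 443 ± 38.4 against 121 ± 17.4 CPM for Rpl30. The paralogues lay below the genes they resemble: Rpl22l1 at 411 ± 55.4 against 1561 ± 88.6 TPM for Rpl22, Rps27l at 731 ± 47.0 against 1830 ± 16.2 TPM for Rps27, and Rpl7l1 at 216 ± 5.91 against 2409 ± 144 TPM for Rpl7. Rpl26l1 was the lowest of all at 4.24 ± 1.69 TPM.

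Some rows do not carry the whole signal of their gene. The row named Rps6, an S6 kinase substrate of the small subunit, spanned 357 bases and held 1.17 ± 0.203 CPM in control libraries. A separate row, LOC100753707, is Rps6 by gene ID in the RefSeq table of assembly CriGri-PICRH-1.0, and held 339 ± 6.41 CPM. LOC100763788 is Rpl17 in that table and held 709 ± 43.0 CPM. Neither passed the test for apoptotic cells or for genotype, and with cytochalasin D the Rpl17 row rose by 0.13 on the log2 scale (SE 0.04, edgeR adjusted p = 0.0253). Processed copies of ribosomal protein genes are common in mammalian genomes. The counting could divide fragments among such copies, so levels of single members carry that uncertainty.

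Members are short. Their lengths ran from 234 to 1830 bases with a median of 583, against 2220 for all genes tested, and 68 of the 75 were 1000 bases or shorter. The spread between replicates grew as members became shorter. Over 70 members the coefficient of variation among the 4 libraries of a group had a median of 3.18% to 5.63%, and its Spearman correlation with length across genes lay between -0.518 and -0.282 in the 6 groups. These genes share the same libraries and are not independent replicates. Rplp1, with 376 bases, reached 24.9% in the cytochalasin D group and 24.3% in the group with both treatments.

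Replicate libraries also moved as a block. In the cytochalasin D group, library 4 had the lowest value for 44 of 70 members, and with both treatments it had the lowest for 43. Library 1 had the highest value for 32 and 40 of 70 in these groups. In the apoptotic cell group, library 3 was highest for 49 and library 2 lowest for 52. Wildtype library 1 was highest for 62 members and Slc12a2-deficient library 2 for 54. The length trend moved with these libraries: the fitted log2 difference between genes of 500 and of 4000 bases, over genes that are not members, was 0.084 in cytochalasin D library 1 and -0.163 in library 4, and 0.094 and -0.122 in the same libraries with both treatments. Its part in the library differences of the members was not tested.

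The comparison of apoptotic cells with control asks what contact and uptake do to the phagocyte. Of the 75 members, 3 rose and none fell (edgeR quasi-likelihood test, Benjamini-Hochberg adjusted p under 0.05), where 13.7% of all 13106 genes tested changed, 6.97% up and 6.68% down. The 3 were Rps21 and Rps13 of the small subunit and Rpl13 of the large one, by 1.17-fold to 1.34-fold. At an unadjusted p under 0.05 there were 17 members, and DESeq2 called 2 higher and none lower. The median log2 change was 0.04, against 0.003 for all genes tested.

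Rps21, a small subunit protein, had 537, 641, 668 and 538 CPM in control libraries and 791, 749, 870 and 759 CPM with apoptotic cells. All 4 libraries with apoptotic cells lay above all controls, and the log2 change was 0.42 (SE 0.12, edgeR adjusted p = 0.0204). Rpl13 had 1201, 1316, 1297 and 1125 CPM in control libraries and 1417, 1418, 1634 and 1499 CPM with apoptotic cells, again without overlap (log2 0.28, SE 0.07, edgeR adjusted p = 0.012). Rps13 had 523, 527, 535 and 453 CPM and then 579, 579, 605 and 601 CPM (log2 0.22, SE 0.05, edgeR adjusted p = 0.00917). Its lowest control, library 4, stood apart from the other controls.

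The stalk genes did not move together. Rplp1 had the largest change of all members, with 795, 933, 1015 and 799 CPM in control libraries and 1139, 1126, 1266 and 1236 CPM with apoptotic cells. The groups did not overlap, but the log2 change of 0.44 (SE 0.15, edgeR adjusted p = 0.050) sat at the threshold and did not pass it. Its partner Rplp2 had a log2 change of 0.05 (SE 0.07, edgeR adjusted p = 0.725), and Rplp0 of -0.04 (edgeR adjusted p = 0.442). In all, 8 members had groups that did not overlap and were higher, and 1 that was lower, against 10.2% and 9.77% of all genes tested.

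Without apoptotic library 3 only 1 member was called, and without apoptotic library 2 there were 5. Without library 3 the calls of Rpl13 and Rps21 were lost, and that of Rps21 also without control library 1 or 4 and with DESeq2, while Rps13 was called without any single library. Of the T lymphocyte markers, 6 of 17 reached 1 CPM with apoptotic cells against 3 in control libraries, and Cd3g, Cd2 and Cd5 were at 0 in both. The fibroblast markers summed to 7490 ± 229 CPM with apoptotic cells and to 6304 ± 231 CPM in control libraries. Vim, at 5400 and 4340 CPM, made up most of both sums. Of 8 fibroblast markers tested, 2 were called, Vim and Col6a1, both higher. The part of other cells' RNA in the members' changes was not tested.

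**Figure D1:**
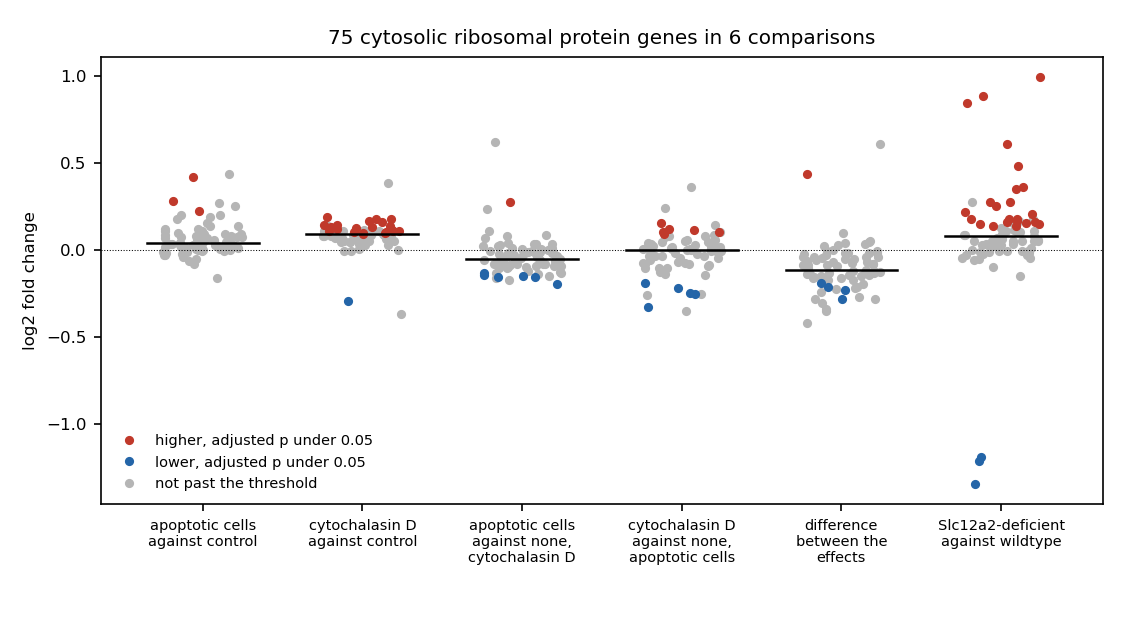
Each point is 1 of the 75 genes, placed by its edgeR log2 fold change in each of 6 comparisons, coloured where the adjusted p was under 0.05, and the black bar is the median. The medians lie between -0.116 and 0.088, and only the genotype comparison holds members beyond a log2 change of 0.7.

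Cytochalasin D against control asks what blocking actin growth does without targets. Here 21 members rose and 1 fell, where 26.3% of all genes changed, 13.5% up and 12.8% down. The rises were small, from 1.07-fold to 1.14-fold, and 70 of 75 members had a positive log2 change, with a median of 0.088 against 0.009 for all genes tested. Of the 21, 15 belonged to the large subunit, 5 to the small subunit and 1, Rplp0, to the stalk. The 1 that fell was the paralogue Rpl22l1.

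Rpl37, a zinc-binding protein of the large subunit, had 624, 623, 615 and 590 CPM in control libraries and 701, 720, 712 and 664 CPM with cytochalasin D (log2 0.19, SE 0.04, edgeR adjusted p = 0.00107). Rpl18 had 861, 908, 911 and 888 CPM against 1003, 1038, 1017 and 986 CPM (log2 0.18, SE 0.04, edgeR adjusted p = 0.000939). Rpl3, which lines the peptidyl transferase centre, had 1647, 1687, 1616 and 1671 CPM against 1799, 1815, 1852 and 1800 CPM (log2 0.13, SE 0.03, edgeR adjusted p = 0.00128). For these 3 genes every cytochalasin D library lay above every control, as it did for 17 members in all, where 13.0% of genes tested did so. Rpl12 (log2 0.18), Rpl37a (0.17), Rps27 (0.16), Rpl7a (0.14) and Rpl10a (0.14) were among the next largest calls. Rpl11 had a log2 change of 0.10 (edgeR adjusted p = 0.068), Rpl10 of 0.08 (0.052) and Rpl5 of 0.09 (0.243), and none of the 3 passed.

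Rpl22l1 is a paralogue of Rpl22, and in mice the Rpl22 protein has been described to repress Rpl22l1. It had 136, 102, 115 and 107 CPM in control libraries and 84.9, 89.0, 94.4 and 107 CPM with cytochalasin D. The groups overlapped, since cytochalasin D library 4 at 107 CPM lay above control library 2 at 102 CPM, and the log2 change was -0.29 (SE 0.08, edgeR adjusted p = 0.00944). Rpl22 itself rose by 0.13 on the log2 scale (SE 0.05, edgeR adjusted p = 0.0425). The ratio of Rpl22l1 to Rpl22 in CPM was 0.242 ± 0.0282 in control libraries and 0.182 ± 0.0219 with cytochalasin D. Without control library 1, the call of Rpl22l1 was lost. The call of Rpl22 was lost in 12 of 20 alternatives, with an edgeR adjusted p of up to 0.17, among them relative log expression factors and leaving out control library 3 or 4 or cytochalasin D library 1, 2 or 3.

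The count of calls with cytochalasin D moved with single libraries, though the median stayed between 0.070 and 0.117. It was 35 without cytochalasin D library 4, 14, 13 and 10 without libraries 1, 2 and 3 of that group, and 11 without control library 1. The calls of Rpl18, Rpl37, Rpl12, Rpl37a and Rpl3 held in all 20 alternatives. Fibroblast markers summed to 5180 ± 255 CPM with cytochalasin D, against 6304 ± 231 CPM in control libraries. Vim made up most of both sums, at 3280 and 4340 CPM, and was the 1 of 8 markers tested that was called. The part of that difference in the members' changes was not tested.

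With apoptotic cells present, cytochalasin D gave another list of calls. Whether its effect differed is tested further below, by the difference between both effects. Against apoptotic cells alone, 6 members rose and 5 fell, where 32.5% of all genes changed, 16.4% up and 16.1% down. Rpl7 rose by 0.16 (SE 0.04, edgeR adjusted p = 0.00404), Rplp0 by 0.12 (SE 0.03, edgeR adjusted p = 0.00378), Rpl3 by 0.11 (SE 0.03, edgeR adjusted p = 0.0044) and Rps24 by 0.10 (SE 0.03, edgeR adjusted p = 0.00782) on the log2 scale, and their groups did not overlap. Rpl7a and Rps27a also rose, by 0.10 and 0.09. In all, 7 members lay wholly above and 4 wholly below, against 16.9% and 15.4% of genes tested.

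The 5 that fell were Rps21, Rps13, Rpl13, Rps28 and Rps26. Rps21 had 791, 749, 870 and 759 CPM with apoptotic cells and 735, 719, 607 and 472 CPM with both treatments (log2 -0.33, SE 0.12, edgeR adjusted p = 0.036). Rps13 fell from 579, 579, 605 and 601 CPM to 539, 518, 473 and 463 CPM (log2 -0.25, SE 0.05, edgeR adjusted p = 0.00105). Rpl13 fell by 0.25 on the log2 scale (SE 0.07, edgeR adjusted p = 0.0107). These 3 genes are also the 3 called in the comparison of apoptotic cells with control, and both comparisons use the same apoptotic cell libraries. Library 4 with both treatments was the lowest for all 3 genes, and without it 6 members were called in all, as they were without library 3, against 17 without library 2 of that group.

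**Figure D2:**
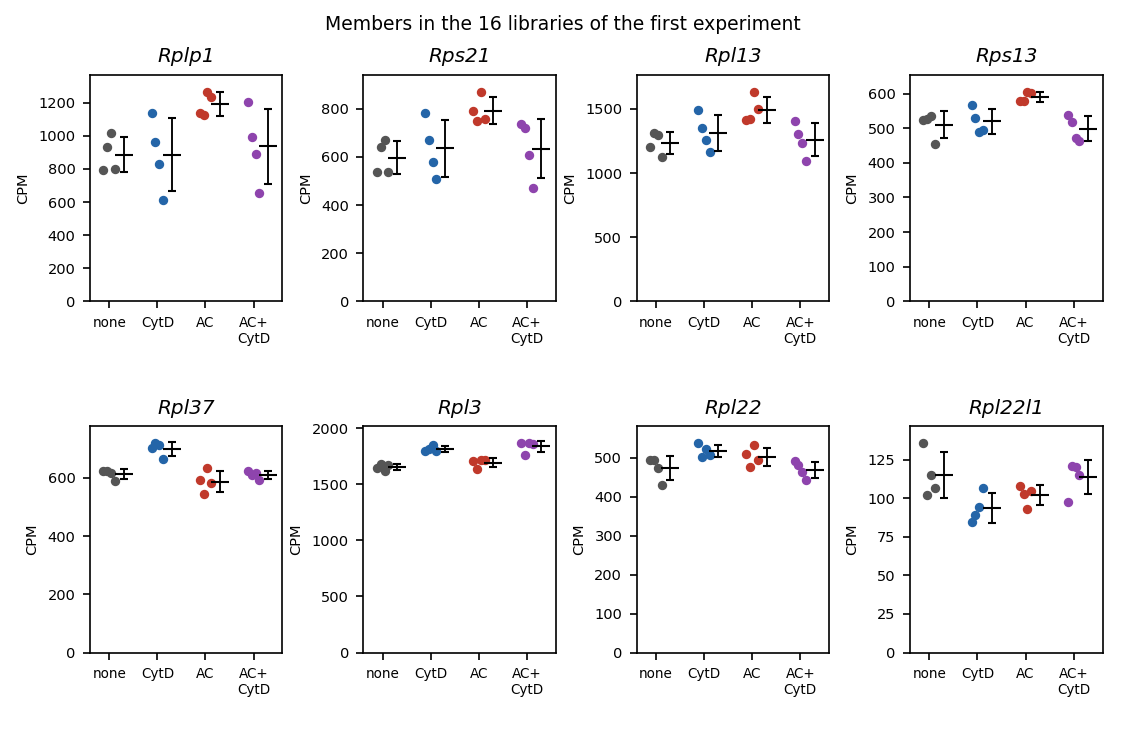
CPM of 8 members in the 16 libraries of the first experiment (none, no treatment; CytD, cytochalasin D; AC, apoptotic cells), with each library a point, libraries 1 to 4 from left to right, and the mean ± SD beside them on axes that start at 0. Rplp1 and Rps21 range most widely in both cytochalasin D groups, where library 4 has 613 and 656 CPM of Rplp1 and library 1 has 1136 and 1204 CPM, while Rpl37 and Rpl3 form tight groups.

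Adding apoptotic cells under cytochalasin D, when uptake is blocked, lowered 6 members and raised 1, where 8.61% of genes changed, 3.79% down and 4.82% up. In 10 members every library with both treatments lay below every one with cytochalasin D alone and in 1 above, against 6.84% and 6.36% of genes tested. Rpl37 had 701, 720, 712 and 664 CPM with cytochalasin D and 622, 609, 615 and 591 CPM with both (log2 -0.20, SE 0.04, edgeR adjusted p = 0.00282), so that the groups did not overlap. Rpl18 fell by 0.16 (edgeR adjusted p = 0.00949), Rpl35a by 0.15 (edgeR adjusted p = 0.00975), Rpl37a by 0.15 (edgeR adjusted p = 0.0228), Rpl35 by 0.16 (edgeR adjusted p = 0.0422) and Rps20 by 0.13 (edgeR adjusted p = 0.0497) on the log2 scale. Rpl22l1 rose by 0.27 (SE 0.08, edgeR adjusted p = 0.0404). With both treatments Rpl37 stood at 609 ± 13.0 CPM, against 613 ± 15.8 CPM in control libraries, and Rpl18 at 904 ± 11.5 against 892 ± 23.0 CPM. This comparison and that of cytochalasin D with control share the cytochalasin D libraries, so their opposite signs are not independent.

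The calls of Rpl37 and Rpl18 held without each single library, and that of Rpl22l1 was lost in 11 of 20 alternatives. Without cytochalasin D library 4 there were 22 calls, 3 higher and 19 lower, and without any 1 of cytochalasin D libraries 1, 2 and 3 or of libraries 2, 3 and 4 with both treatments there were 3 or 4. Cytochalasin D libraries 1 and 2 and library 4 with both treatments lay farthest out on the third principal component of the first experiment. Without these 3 libraries, an alternative chosen after the data were seen, 2 other members were called higher and none lower, and the median moved from -0.052 to -0.005. The 2 were Rplp1 and Rps21, which fell from library 1 to library 4 in both groups. This alternative sets cytochalasin D libraries 3 and 4 against libraries 1, 2 and 3 with both treatments. It therefore cannot separate the treatment from the order of the libraries.

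Whether the effect of apoptotic cells differed with cytochalasin D was tested directly, as the difference between both effects. Of all genes tested, 4.56% had another effect under cytochalasin D, 3.03% a higher and 1.53% a lower one. Among members, 1 was higher, Rpl22l1 (log2 difference 0.44, SE 0.12, edgeR adjusted p = 0.0336), and 4 were lower: Rps13 (-0.28, edgeR adjusted p = 0.0402), Rpl22 (-0.23, edgeR adjusted p = 0.041), Rpl37a (-0.21, edgeR adjusted p = 0.0366) and Rpl35a (-0.19, edgeR adjusted p = 0.0318). Rpl22l1 had a log2 change with apoptotic cells of -0.16 (edgeR adjusted p = 0.192) without cytochalasin D and of 0.27 under it. Its ratio to Rpl22 was 0.204 ± 0.0195 with apoptotic cells and 0.242 ± 0.0290 with both treatments. For Rplp1 the difference of -0.35 (SE 0.21, edgeR adjusted p = 0.336) did not pass. The median log2 difference over members was -0.116, against -0.015 over all genes, and 66 of 75 members had a negative one.

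None of these 5 calls held when single libraries were left out, since 0 members were called without control library 1, cytochalasin D library 1, apoptotic cell library 3 or libraries 3 or 4 with both treatments. The count was 1 or 2 without control library 3 or 4, cytochalasin D library 2 or 3 or apoptotic cell library 1 or 4, and 3 without library 2 with both treatments. It was 9 without apoptotic cell library 2, 11 without library 1 with both treatments and 23 without cytochalasin D library 4. Without the 3 libraries that lay farthest out it was 0, with the imbalance of library numbers described above.

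Because members are short, their changes were set beside those of other genes of like length. With apoptotic cells, fold changes declined with length across all genes (Spearman correlation across genes -0.256, n = 13106 genes that share the same libraries), and among members as well (-0.373, n = 75). For genes of 500 bases or shorter, the median log2 change was 0.086 for 25 members and 0.056 for 60 other genes with a symbol and at least 10 CPM. For longer genes of up to 1000 bases it was 0.028 for 43 members and 0.055 for 581 others. For the difference between the effects, the correlation was 0.195 across all genes and 0.501 among members. In the shortest class the median was -0.167 for members and -0.124 for others, and in the next -0.077 and -0.073.

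Cytochalasin D against control showed little steady rise or fall with length, with Spearman correlations of -0.037 across all genes and 0.027 among members. A rank correlation can miss a bend. The median of other genes was 0.053 around 450 bases, 0.044 around 655 and -0.006 around 2460. Around 13380 bases, among the longest genes, it was 0.134. The median for members was 0.091 at 500 bases or shorter and 0.084 for longer ones up to 1000 bases, against 0.056 and 0.028 for the other genes. In the latter class 11.4% of the other genes were called higher and 8.09% lower.

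Removing the length trend of each library from the fit changed the calls. With the trend taken over all other genes, 46 members were called lower and none higher with apoptotic cells, the signs of Rplp2, Rpl11, Rpl22, Rps27 and Rpl10 turned, and Rps13, called before, went to 0.00 (edgeR adjusted p = 0.948). With the trend taken over other genes with a symbol and at least 10 CPM, a choice made after the data were seen, 3 were higher and 4 lower, and the 3 higher ones were Rps21, Rps13 and Rpl13 as before. This trend also differed in method, as a robust fit instead of least squares. With cytochalasin D, 5 and 16 members stayed higher under these trends, all among the 21, and Rpl22l1 stayed lower under both. For the difference between the effects, Rpl22l1 was the 1 member called under both trends, and the 4 lower calls were lost.

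**Figure D3:**
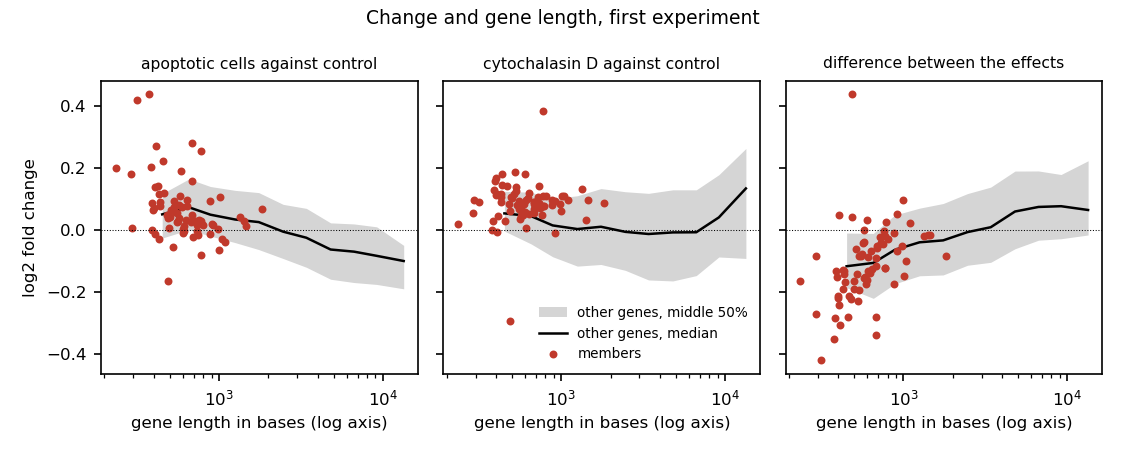
Log2 fold change of 74 members (red points; the Rps6 row is left out) against gene length in bases on a log axis, beside the median (line) and middle 50% (band) of other genes with a symbol and at least 10 CPM, for 3 comparisons of the first experiment. With apoptotic cells the members of 500 bases or shorter have a median of 0.086, against 0.056 for the other genes, and longer ones up to 1000 bases 0.028 against 0.055. With cytochalasin D the medians of both classes, 0.091 and 0.084, lie above those of the other genes.

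Genotype gave the largest changes. In Slc12a2-deficient cells 23 members were higher and 3 lower than in wildtype cells, where 42.5% of all 13050 genes tested differed, 21.1% higher and 21.3% lower. In 20 members every deficient library lay above every wildtype one and in 3 below, against 19.9% and 19.6% of genes tested. The median log2 change of members was 0.078, against -0.002 for all genes. At least 1.5-fold changes were found for 7 members, 4 higher and 3 lower, and in the first experiment no called member changed that much. The calls of members given below with an adjusted p held in all 17 alternatives tried, and had the same sign within the libraries numbered 9 to 12 and within those numbered 13 to 16, which the second principal component separates. Lck, Zap70 and Lef1, the T lymphocyte markers at 1.67 to 3.33 CPM in unsorted phagocytes with apoptotic cells alone, were at 0.0583 CPM or less in both genotypes. The marker sum was 23.7 to 28.4 CPM in deficient and 29.9 to 32.2 CPM in wildtype libraries. Lat (10.8 CPM in wildtype and 4.67 CPM in deficient cells) and Cd28 (3.91 and 1.37 CPM) were also found in phagocytes alone, at 11.0 and 1.30 CPM. Of 8 fibroblast markers tested, 7 were lower and 1 higher in deficient cells, with a median log2 change of -0.75, and their part in the members' changes was not tested.

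Rpl18 and Rpl13a, both of the large subunit, were among those that fell. Rpl18 had 953, 914, 999 and 1005 CPM in wildtype libraries and 352, 421, 381 and 380 CPM in deficient ones. It was 2.53-fold lower (log2 -1.34, SE 0.05, edgeR adjusted p = 2.9e-11). Rpl13a, whose protein also takes part in silencing inflammatory transcripts, had 1312, 1217, 1282 and 1291 CPM and 546, 585, 569 and 548 CPM (2.28-fold lower, log2 -1.19, SE 0.04, edgeR adjusted p = 7.7e-12). For both genes the deficient libraries lay far below the wildtype ones. In TPM Rpl18 went from 3090 ± 117 in wildtype to 1189 ± 70.8 in deficient libraries and Rpl13a from 3164 ± 59.2 to 1354 ± 26.2.

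Rps28, a short small subunit protein gene of 291 bases, had 138, 115, 102 and 113 CPM in wildtype libraries and 215, 244, 218 and 259 CPM in deficient ones (1.99-fold higher, log2 0.99, SE 0.08, edgeR adjusted p = 9.61e-08). Rpl30, a large subunit protein that in yeast binds its own transcript, had 67.3, 67.2, 64.3 and 65.0 CPM and 116, 124, 112 and 123 CPM (1.79-fold higher, log2 0.84, SE 0.05, edgeR adjusted p = 1.26e-09). Rpl22l1 had 82.8, 74.2, 76.4 and 69.7 CPM and 155, 143, 136 and 128 CPM (1.84-fold higher, log2 0.88, SE 0.06, edgeR adjusted p = 2.11e-08). The groups did not overlap for any of these genes. In the deficient cells Rpl30 and Rpl22l1 stood at 948 ± 42.6 and 538 ± 46.5 TPM.

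Rpl22 was higher as well, by 0.36 on the log2 scale (SE 0.07, edgeR adjusted p = 0.000619), so the ratio of Rpl22l1 to Rpl22 rose from 0.301 ± 0.0115 to 0.433 ± 0.0377 with both genes moving the same way. The other paralogues did not pass: Rps27l had a log2 change of 0.09 (edgeR adjusted p = 0.151) and Rpl7l1 of 0.03 (edgeR adjusted p = 0.536).

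Rpl35a, a gene altered in some families with Diamond-Blackfan anaemia, had 500, 452, 462 and 476 CPM in wildtype libraries and 693, 781, 730 and 693 CPM in deficient ones (1.53-fold higher, log2 0.61, SE 0.05, edgeR adjusted p = 8.8e-08). Rpl3 had 1587, 1543, 1535 and 1546 CPM and 2036, 2215, 2181 and 2279 CPM (1.40-fold higher, log2 0.48, SE 0.04, edgeR adjusted p = 3.07e-07). Rps20 was 1.27-fold higher (edgeR adjusted p = 5.84e-05). In the stalk, Rplp0 rose by 0.27 (SE 0.05, edgeR adjusted p = 0.000333) and Rplp1 by 0.27 (SE 0.05, edgeR adjusted p = 0.000233) on the log2 scale, and Rplp2 had a log2 change of 0.17 that did not pass (edgeR adjusted p = 0.0569). Rpsa was 1.15-fold higher (edgeR adjusted p = 0.00149). The other higher calls were between 1.10-fold and 1.19-fold, among them Rpl29, Rpl14, Rpl24 and Rps4x. Rpl5, Rpl11 and Rpl10 had log2 changes of 0.00, 0.05 and 0.00 and did not pass.

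**Figure D4:**
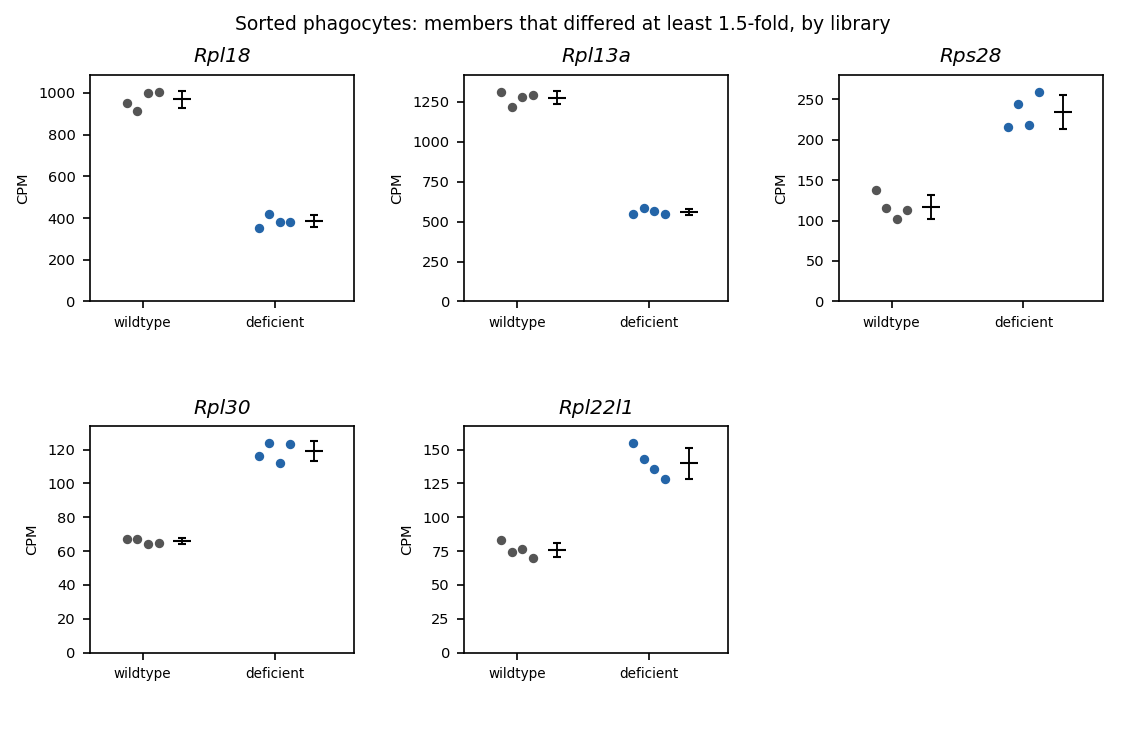
CPM of 5 members that differed at least 1.5-fold in the 4 wildtype and 4 Slc12a2-deficient libraries, with each library a point and the mean ± SD beside them, on axes that start at 0. Rpl18 and Rpl13a lie lower in every deficient library, at 352 to 585 CPM, and Rps28, Rpl30 and Rpl22l1 lie higher in every one.

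In the deposited coordinates the 75 members lie on 72 scaffolds, and Rpl18 and Rpl13a share 1 of them, NW_003614570.1, with Rpl18 at bases 35571 to 36975 and Rpl13a at 639184 to 642058 (genome build not given in the sources used here). On this scaffold 19 genes that are not members were tested, of which 18 were lower in deficient cells and none higher, with a median log2 change of -1.45. With apoptotic cells and with cytochalasin D the medians of these genes were 0.09 and 0.10.

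The RefSeq gene order of assembly CriGri-PICRH-1.0, to which 74 members and 11158 of the 13050 genes tested were matched by symbol, was used to look further out. In that order the lower genes run from Clec11a to the end of the chromosome. Of 58 other genes tested in that stretch, 57 were lower in deficient cells, none was higher and Ppfia3 did not pass (log2 -0.17). Their median was -1.38. Among the 59 other genes just before Clec11a, 9 were lower and 12 higher, with a median of 0.00. Clec11a, the first gene of the stretch, had 76, 111, 138 and 135 fragments in the wildtype libraries and 0 in all 4 deficient libraries. Rpl12 and Rpl35, members that lie before it on the same chromosome, had log2 changes of 0.10 and 0.06 and did not pass. The edges of this stretch were chosen after the values were seen, and the files hold no measure of DNA.

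**Figure D5:**
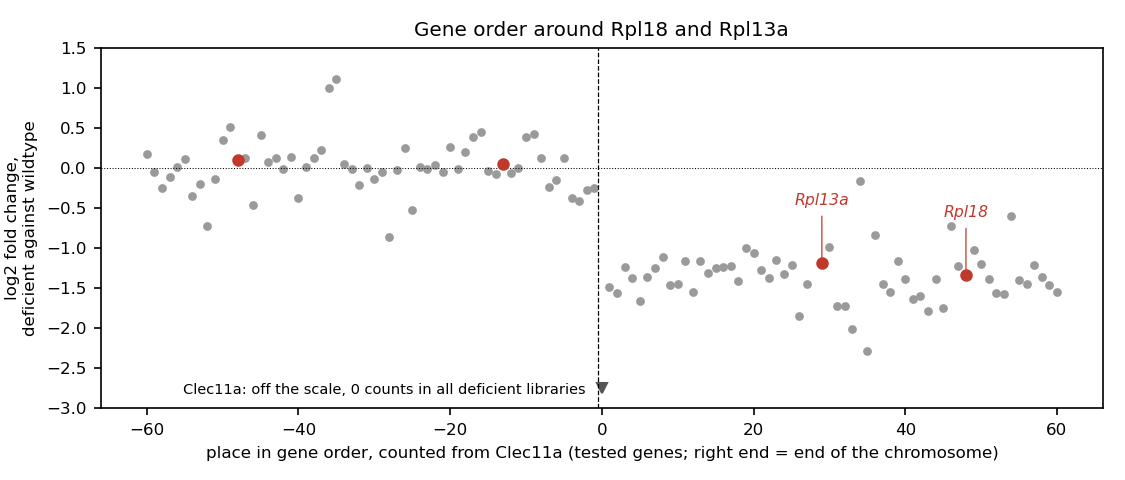
Log2 fold change between genotypes of tested genes in RefSeq gene order, counted from Clec11a, with Rpl13a, Rpl18, Rpl12 and Rpl35 in red, genes that are not members in grey and the end of the chromosome at the right. Values scatter around 0 to the left of Clec11a and around -1.38 to its right, where Rpl13a and Rpl18 lie at -1.19 and -1.34, and Clec11a itself is off the scale.

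The same gene order was read around every matched member, taking up to 25 tested genes on each side. For Rps28 the median log2 change of its 50 neighbours was 0.73, with 38 higher and 2 lower, and for Rpl30 it was 0.59, with 31 higher and 7 lower. For Rpl22l1, Rpl3 and Rpl35a the neighbours' medians were 0.07, -0.02 and 0.09, against log2 changes of 0.88, 0.48 and 0.61 for the members themselves. Closer by, the 10 tested genes that flank Rpl35a on its deposited scaffold had a median of 0.43, with 8 higher and none lower, among them Fyttd1 (0.70) and Znf148 (0.65). The 7 that flank Rpl3 had a median of 0.11, with 3 higher and 3 lower, and the 1 that flanks Rpl22l1, Eif5a2, had 0.26 and was called higher. For Rpl22 it was 0.23, the highest of the remaining windows, whose medians ran down to -0.14. Across 74 members the Spearman correlation between the member's change and its neighbours' median was 0.404, and 0.325 without the members that fell. These are descriptions over genes of the same libraries, some with shared neighbours.

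These differences reach genes used for normalisation. The ratio of Rplp0 to Rpl13a in CPM was 1.97, 1.95, 1.82 and 1.81 in wildtype libraries and 5.15, 5.35, 5.19 and 5.13 in deficient ones, with no overlap between genotypes. Within the first experiment the ratio stayed between 5.05 ± 0.0681 and 5.54 ± 0.202 in the 4 groups. The deficient libraries lay within this range and the wildtype ones below it. In control, wildtype and deficient libraries Rpl13a stood at 1650 ± 47.7, 3164 ± 59.2 and 1354 ± 26.2 TPM. Rpl18 stood at 2582 ± 54.1, 3090 ± 117 and 1189 ± 70.8 TPM. The experiments were made separately, and the difference between them was not tested.

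Genes that make or control ribosomes were read beside the members. Of 49 ribosome biogenesis genes, 31 fell and 1 rose with cytochalasin D, where 12.8% of all genes fell and 13.5% rose, and the median was -0.162. Rrp1b, a nucleolar processing factor, fell by 0.57 (edgeR adjusted p = 4.45e-10) and Ubtf, which activates RNA polymerase I, by 0.51 (edgeR adjusted p = 3.5e-10) on the log2 scale. With apoptotic cells 13 rose and 3 fell (6.97% and 6.68% of all genes), and with apoptotic cells under cytochalasin D 18 rose and 1 fell (4.82% and 3.79%), among them Nmd3, the export adaptor of the large subunit (log2 0.39, edgeR adjusted p = 0.0028). Cytochalasin D with apoptotic cells lowered 22 and raised none (16.1% and 16.4% of all genes). In deficient cells 8 were higher and 13 lower, a share close to the 42.5% of all genes that differed. Of the latter, Grwd1, whose yeast homologue binds Rpl3 and which lies in the stretch with Rpl18, fell most (log2 -1.57, edgeR adjusted p = 2.49e-11).

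Of 75 mitochondrial ribosomal protein genes, whose products form a separate ribosome, 23 rose and 1 fell with apoptotic cells, where 13.7% of all genes changed. With cytochalasin D 5 rose and 3 fell, a smaller share than the 26.3% of all genes, and in deficient cells 20 were higher and 2 lower, a smaller share than the 42.5% of all genes. Their median length was 992 bases. Of 38 translation factors and related genes, 4 rose and 10 fell with cytochalasin D (13.5% and 12.8% of all genes). Among those that fell were Eif3j (log2 -0.25, edgeR adjusted p = 0.00188) and Eif5b (log2 -0.25, edgeR adjusted p = 0.000149). Eif3a, the largest subunit of initiation factor 3, rose by 0.32 with cytochalasin D (edgeR adjusted p = 2.86e-07) and was 1.66-fold higher in deficient cells (edgeR adjusted p = 2.55e-09). Of these 38, 15 were higher and 1 lower in deficient cells (21.1% and 21.3% of all genes). Among them Pabpc1, which binds poly(A) tails, rose by 1.32 (edgeR adjusted p = 1.8e-11) and Eif3h, another subunit of initiation factor 3, by 0.86 (edgeR adjusted p = 4.52e-09) on the log2 scale.

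Of 17 genes that control ribosomal protein synthesis, 5 rose and 3 fell with cytochalasin D (13.5% and 12.8% of all genes). Larp1, which binds the pyrimidine motif, fell by 0.22 (edgeR adjusted p = 0.0055), and Sesn2, an inhibitor of mTORC1, rose by 0.62 (edgeR adjusted p = 2.93e-06) on the log2 scale. In deficient cells 5 of the 17 were higher and 2 lower, a share close to the 42.5% of all genes that differed. Among them Rheb, which activates mTORC1, fell by 0.89 (edgeR adjusted p = 1.03e-08) and Pdcd4 rose by 1.13 (edgeR adjusted p = 7e-08). Akt1s1, which lies in the stretch with Rpl18, fell by 1.16 (edgeR adjusted p = 1.23e-10). Of ribosomal protein genes that the name rule misses, Gnb2l1, Fau and Rpl36al were measured. Fau fell by 0.18 when cytochalasin D was added to apoptotic cells (edgeR adjusted p = 0.0159). Gnb2l1, the scaffold protein of the small subunit, rose by 0.12 with cytochalasin D (edgeR adjusted p = 0.00383), and none of the 3 passed for apoptotic cells or for genotype.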

How the data were processed

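RNA was measured in 24 libraries of 75 bp paired-end reads. The authors deposited raw fragment counts per gene name. Per the file headers, featureCounts 1.5.0 counted pairs with both ends aligned over exons, without a strand setting. The submitters' processing notes also name FastQC, STAR and DESeq2. The genome build is not stated there. A row with a blank name, on average 0.0361% of control and 1.34% of wildtype counts, was left out.

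Separate edgeR 4.0.16 fits (R 4.3.3) were made for the 16 and the 8 libraries, with TMM factors, filterByExpr by group (minimum count 10, total 15), the quasi-likelihood F test and Benjamini-Hochberg adjustment over all genes tested, called at 0.05. CPM are TMM-scaled, and TPM use the gene lengths in the deposited tables. Length trends are loess fits (span 0.5) over genes that are not members, entered as offsets. The trend over all other genes was fitted by least squares. That over genes with a symbol and 10 CPM was a robust fit, which gives outlying genes less weight. The tests were checked on simulated counts of libraries drawn independently, with planted changes larger than any called member showed in the first experiment. That check does not cover smaller changes or libraries that move together. Alternatives were DESeq2 1.42.0, other scaling, other filters, a threshold of 0.01, the length trend, a replicate block, fits of only the libraries compared, and each library left out. Chosen after the data were seen were the trend over genes at 10 CPM with a symbol, trend with block, 3 libraries left out, and the run of library numbers as a block.

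Members named are up to 8 per direction with the largest change among those called at 10 CPM or more, plus the stalk genes, Rpsa, Rps6, Rpl3, Rpl5, Rpl11 and paralogue pairs. Of each related list, at most 4 called genes were named. Members and lists were chosen with earlier results of these data known. The labels call the libraries biological replicates. Some members are counted but not reported here by name.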

Additional observations from a re-analysis of the deposited data

Results flagged for a closer look

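Among 35 named members in 6 groups, 18 of 210 sets of 4 libraries (8.57%) had a library whose gap to the nearest other was most of their range (Dixon test at the 95% level), where chance flags about 1 in 20 such groups. Wildtype library 1 accounted for 9 of them, each time as the highest: Rpl11 with 1102 CPM, Rpl37a with 542 CPM, Rplp0 with 2585 CPM, Rplp2 with 839 CPM, Rps20 with 434 CPM, Rps21 with 398 CPM, Rps24 with 965 CPM, Rps27 with 483 CPM and Rps27a with 920 CPM. Wildtype library 4 was highest for Rpl10 with 794 CPM. Without wildtype library 1, 32 members were higher and 3 lower in deficient cells.

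In the first experiment, control library 4 was lowest for Rps13 with 453 CPM. Cytochalasin D library 1 was highest for Rpl11 with 1341 CPM, and library 4 lowest for Rpl13a with 726 CPM. Apoptotic cell library 2 was lowest for Rpl12 with 236 CPM and for Rpl3 with 1642 CPM, and library 3 highest for Rpsa with 3252 CPM. Library 2 with both treatments was lowest for Rpl3 with 1765 CPM and for Rplp0 with 4046 CPM.

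The effect of apoptotic cells differed with cytochalasin D for Rpl22l1 (log2 difference 0.44), Rps13 (-0.28), Rpl22 (-0.23), Rpl37a (-0.21) and Rpl35a (-0.19), each past the edgeR threshold, and each call was lost without single libraries, as described above.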

How the results depend on the processing

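The genotype calls stayed within 1.5 times of 26 in every alternative, from 23 without wildtype library 2 to 35 without wildtype library 1, with medians of 0.047 to 0.121, and 31 with the run of library numbers as a block. Scaling by relative log expression or without the members, and a filter at 1 CPM, moved no count by that much. Over named genes, 2236 of 2522 values kept their side of the threshold, and 196 lost and 78 gained a call. A further 12 changed sign where at least 1 of the fits called the gene. Changes of sign in genes called by neither fit are counted among the 2236.

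Called members numbered as follows in the other alternatives. With apoptotic cells (3 called) there were 7 without a filter, 1 at an adjusted p of 0.01 and 12 with only the 8 libraries compared. With cytochalasin D (22) there were 8 at 0.01 and 12 without 3 libraries. For apoptotic cells under cytochalasin D (7) there were 11 with DESeq2, 14 without a filter, 3 at 0.01, 4 with only 8 libraries and 2 without 3 libraries. For cytochalasin D with apoptotic cells (11) there were 5 at 0.01 and 19 with only 8 libraries. For the difference between the effects (5) there were 8 with DESeq2, 12 without a filter, 0 at 0.01 and 0 without 3 libraries.

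Removing the length trend over all other genes gave 46, 6, 28, 30 and 1 calls in these 5 comparisons in the same order, with medians of -0.143 with apoptotic cells, 0.098 with cytochalasin D added to them and 0.024 for the difference. With the trend over genes with a symbol and 10 CPM there were 7, 23 and 1 calls with apoptotic cells, with cytochalasin D added to them and for the difference, and medians of -0.032 with apoptotic cells and -0.012 for the difference. Under the first trend the log2 change with apoptotic cells became 0.00 for Rps13, -0.18 for Rplp2 and Rpl11, -0.12 for Rpl22 and Rpl10 and -0.16 for Rps27. The cause was not tested.

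Correlations of same-numbered deviations lay between -0.13 and 0.31, and own numbers correlated best for 1, 0, 2 and 0 of 4 in the first 4 comparisons. The 2 groups with cytochalasin D nevertheless shared an order by number. On the first principal component of the first experiment, libraries 1 to 4 stood at 9.9, 14.2, 15.3 and 17.8 with cytochalasin D. With both treatments they stood at 12.1, 13.7, 16.1 and 20.6. Rplp1 and Rps21 fell from library 1 to library 4 in both groups. The main fit has no term for the number. With the number as a replicate block there were 7, 25, 8, 17 and 8 calls. Block and length trend together gave 49, 11, 31, 37 and 2, with medians of -0.144, 0.092 and 0.02 in the same 3 comparisons, and log2 changes of -0.01 for Rps13, -0.18 for Rplp2 and Rpl11, -0.12 for Rpl22 and Rpl10 and -0.16 for Rps27 with apoptotic cells. In the sorted cells the labels give library numbers only, so no paired fit was made.

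Leaving out each library gave 1 to 5, 10 to 35, 3 to 22, 6 to 17 and 0 to 23 calls, with medians of 0.026 to 0.054, 0.070 to 0.117, -0.063 to -0.027, -0.024 to 0.009 and -0.143 to -0.084. With 4 libraries a group, counts of calls in the first experiment were sensitive to single libraries.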
